A study of Mus musculus with 2 samples.

Results

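The genes described here encode the cytosolic factors that start, extend and end protein synthesis on messenger RNA. They were taken from the table by name: every gene with a protein-coding transcript whose symbol begins with Eif or Eef and a digit, the release and recycling genes Etf1, Gspt1, Gspt2 and Abce1, and the Pabpc genes for cytoplasmic poly(A)-binding proteins. Eif2s3x and Eif2s3y were left out by the rule. This gave 73 genes out of 45578 in the table, of which 21874 had a protein-coding transcript. The rule used no measured value. The footprints came from brain of control mice at postnatal day 5 (P5), in 2 biological replicates of 1 group. The genotype was Smn+/-; SMN2tg/0 on a congenic FVB background, that is, 1 functional copy of mouse Smn together with the human SMN2 transgene, so no animal without these alleles serves as a reference. Ribosomes engaged in translation were captured from nuclease-treated lysate on RiboLace beads, which carry a puromycin analogue, and fragments of 25 to 35 nucleotides were sequenced. The labels call the libraries biological replicates but do not say whether they came from separate litters, preparations or runs, so tests between them measure the spread of these libraries, which may be technical. Matched RNA levels were not analysed here, and in whole brain fewer cells of a type and less RNA per cell cannot be told apart.

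Translation begins when eIF2 brings initiator transfer RNA to the small ribosomal subunit with eIF1, eIF1A, eIF3 and eIF5, while eIF4F binds the cap of the messenger RNA and unwinds its leader. During elongation eEF1A delivers aminoacyl-transfer RNA, eEF2 moves the ribosome along by a codon, and eIF5A assists peptide bond formation at difficult sequences. At a stop codon eRF1 and eRF3, encoded by Etf1 and the Gspt genes, release the protein, and ABCE1 splits the ribosome. In the brain these steps are regulated by synaptic activity and by phosphorylation of eIF2, of the eIF4E-binding proteins and of eEF2.

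Replicate 1 held 343552 counts at the gene level and replicate 2 held 120282, so that 1 count was worth 2.71 library-scaled counts (CPM) in the first and 8.93 in the second. The gene lists that check the tissue had 2602 and 928 counts for 7 neuronal markers, 739 and 265 for 6 astrocyte and radial glia markers, 205 and 78 for 6 oligodendrocyte lineage markers and 60 and 17 for 5 microglial markers. Erythroid markers had 1407 and 463 counts. Of 6 markers of liver, muscle and pancreas, 5 were at 0 in both libraries (Alb, Cpa1, Ins1, Ins2 and Ttn). The sixth, the muscle actin gene Acta1, had 70 and 22 counts; how many of these it shares with other actins was not tested.

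The 73 translation factor genes held 3531 counts in replicate 1 and 1112 in replicate 2. They took 1.03% of all gene counts in the first library, with a 95% Wilson interval from 0.995 to 1.06. They took 0.924% in the second, from 0.872 to 0.980, and 0.976% ± 0.073 on average (SD, n = 2). These intervals and all others here cover counting error only, and amplified reads that carry no molecular identifier do not count separate molecules. Of protein-coding counts alone the share was 1.26% in both replicates (1.22 to 1.31 and 1.19 to 1.34). The intervals of the libraries did not overlap for all gene counts and coincided for coding counts. Genes with a protein-coding transcript held 279531 of 343552 gene counts in replicate 1 and 87925 of 120282 in replicate 2, a smaller part in the second. The genes with most counts, Eef1a1, Eef2 and Eef1a2, held 34.7% of the translation factor counts in replicate 1 and 37.8% in replicate 2. All 3 encode elongation factors.

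Counts averaging 10 or more over the libraries were reached by 44 of the 73 genes, or 60.3%, against 20.1% of all protein-coding genes. A further 23 genes had at least 1 count and 6 had none: Eif4e1b, Eif4ebp3, Pabpc1l, Pabpc2, Pabpc4l and Pabpc6. A count of 0 allows up to 3 counts as a one-sided limit, which is 8.13 CPM for the first library and 26.8 CPM for the second. The Poisson intervals given with densities have an upper and a lower limit and reach higher at 0. Eif4e1b and Pabpc1l are known from oocytes and Pabpc2 from testis.

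To compare genes with one another, counts on the coding isoform were expressed as CPM per kilobase of coding sequence, called coding density here. The median coding density of all 73 genes was 61.8 CPM per kilobase in replicate 1 and 52.2 in replicate 2, against 4.51 and 3.07 for all 21874 protein-coding genes. Among genes past the count minimum the gap was smaller. There the medians were 103 and 99.1 for the 44 translation factors, against 62.0 and 59.6 for 4392 coding genes. The mean density over the replicates exceeded the median of all coding genes for 64 of the 73. Densities ran from 0 to 1131 CPM per kilobase, the latter for Eef1a1. The spread was wide within most roles: the plot by role shows eEF1A, eEF2 and eIF1 furthest to the right, the eIF3 subunits in a narrow band, and the kinases that phosphorylate eIF2 left of the median of counted coding genes.

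**Figure D1:**
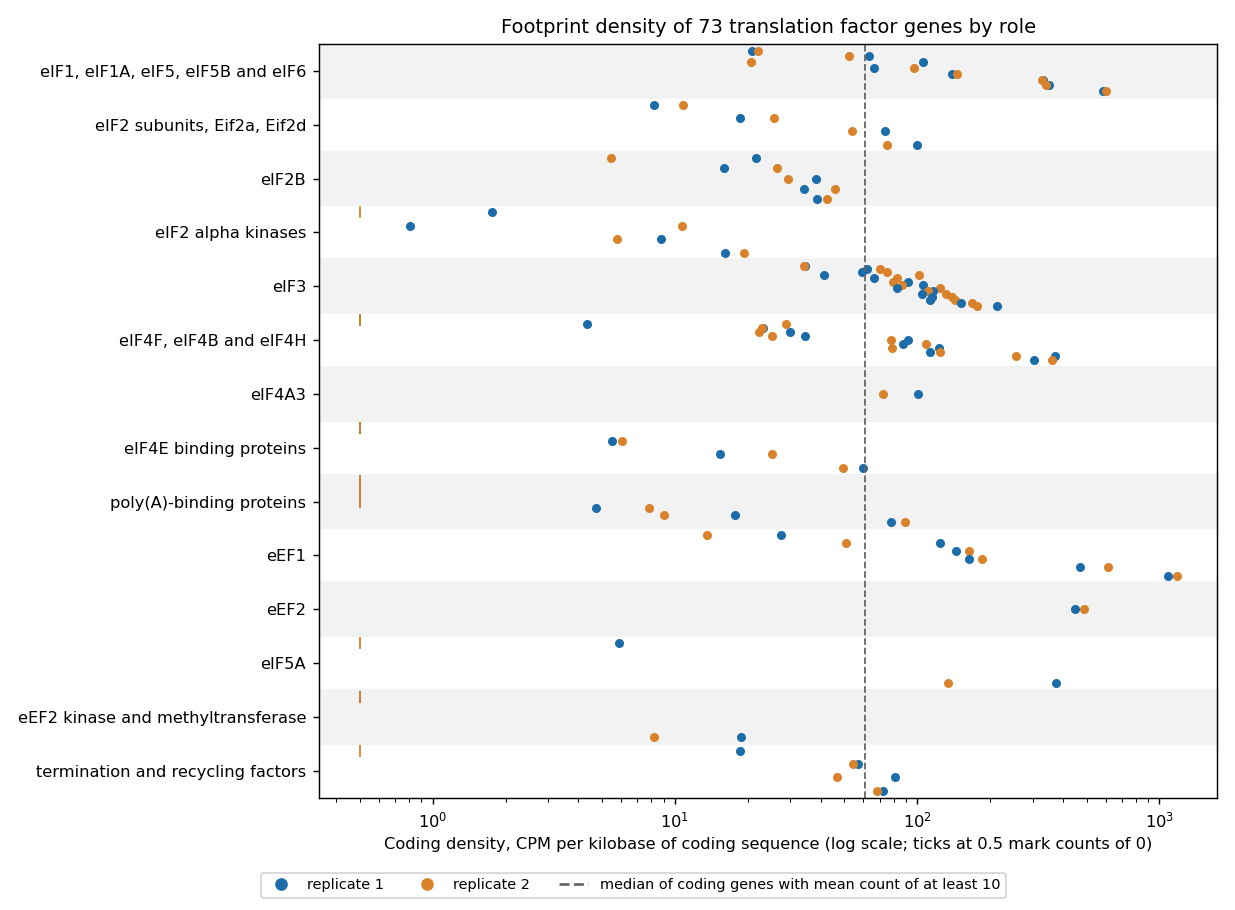
Coding density of each of the 73 translation factor genes, in CPM per kilobase of coding sequence on a log axis, grouped by role. Each gene has 1 blue point for replicate 1 and 1 orange point for replicate 2, ticks at the left mark counts of 0, and the dashed line is the median of 60.8 for coding genes past the minimum of 10 counts on average; Eef1a1 lies furthest to the right at 1085 and 1176.

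Of the 4 highest coding densities, 3 belonged to elongation factors, and the other to Eif1. Eef1a1 (ENSMUSG00000037742) encodes the form of eEF1A found in most tissues. It had 556 counts in the first library and 183 in the second. Its coding density was 1085 CPM per kilobase in replicate 1 (exact Poisson 95% interval 996 to 1179) and 1176 in replicate 2 (1012 to 1360). The mean was 1131 ± 64.9 (SD, n = 2). Its intervals lay above those of every other translation factor in both libraries. Eef1a2 (ENSMUSG00000016349) encodes the form that replaces it in mature neurons and muscle, and had 242 and 96 counts. The density of Eef1a2 was 471 (414 to 534) and 616 (499 to 752) CPM per kilobase. Eef1a1 therefore made up 69.7% of the combined eEF1A density in replicate 1 (exact binomial 95% interval 66.4 to 72.9) and 65.6% in replicate 2 (59.7 to 71.2). Eef1a1 had the higher density in both libraries, and the number of fragments that fit both genes was not tested.

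Eef2 (ENSMUSG00000034994), the translocase, had 426 and 141 counts over a coding sequence of 2577 nucleotides. Its density of 448 (406 to 493) and 489 (411 to 576) CPM per kilobase put it close to Eef1a2, with overlapping intervals in both libraries. The densities of Eef1a1 and Eef1a2 together were 3.47 times that of Eef2 in replicate 1 (95% interval 3.08 to 3.92) and 3.67 times in replicate 2 (2.99 to 4.52).

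The exchange factors that recharge eEF1A with GTP stood far below eEF1A itself. Eef1b2, a catalytic subunit, had 41 and 14 counts and a density of 174 ± 14.5 CPM per kilobase (SD, n = 2). Eef1g, the scaffold subunit, had 70 and 24 counts and a density of 154 ± 13.2 (SD, n = 2). These ratios between genes, like all below, were chosen after values were seen. The ratio of Eef1g to Eef1b2 was 0.881 in replicate 1 (95% interval 0.591 to 1.33) and 0.885 in replicate 2 (0.439 to 1.85), which includes equal density. The combined eEF1A density was 9.49 times that of Eef1b2 (6.94 to 13.3) in replicate 1 and 9.72 times (5.70 to 18.0) in replicate 2. Eef1d, another catalytic subunit, was lower, with 20 and 3 counts and a density of 27.3 and 13.5 CPM per kilobase. Eef1b2 exceeded it 5.996-fold in replicate 1 (3.43 to 10.8) and 13.6-fold in replicate 2 (3.81 to 74.1). The counts of Eef1d were taken on an isoform with a coding sequence of 1983 nucleotides, the long form known from brain. The gene has 15 coding isoforms, and the form coding for 846 nucleotides received 6 and 2 counts. Eef1e1, an accessory protein of the aminoacyl-transfer RNA synthetase complex named for its likeness to these subunits, had 24 and 3 counts.

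Eif5a, which carries the amino acid hypusine, had the largest log2 ratio between the libraries among the 44 genes past the minimum. It had 64 counts in the first library and only 7 in the second, which is 373 CPM per kilobase (287 to 476) and 134 (54.1 to 277), and these intervals did not overlap. The log2 ratio of replicate 2 over replicate 1 was -1.46 with a counting SE of 0.566, and the exact binomial p of 0.00695 became 0.141 after Benjamini-Hochberg adjustment over all genes tested. Scaling to library totals in place of TMM put it past the threshold, at an adjusted exact binomial p of 0.0302. Summing its isoforms did so too, with 573 and 76 counts, a log2 ratio of -1.13 and an adjusted exact binomial p of 2.42e-10. How a fragment that fits several isoforms was counted is not known. If it was counted for each, the sum holds it more than once and that p is too small. The table lists 11 isoforms of Eif5a with the same coding sequence of 465 nucleotides, whose counts ran from 35 to 64 in replicate 1 and from 4 to 10 in replicate 2. The isoform used here, chosen for its sum, was the highest of them in replicate 1. Eif5a2, a second copy of the gene known from a few tissues and tumours, had 1 count in the first library alone. Eef2k, the kinase that inhibits eEF2, had 15 and 2 counts, and Eef2kmt, which methylates eEF2, had no count on its coding isoform.

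Several of these messenger RNAs are known to belong to the TOP class, whose leader begins with a C and a tract of pyrimidines and through which mTOR controls their translation. The 10 members known as TOP messenger RNAs were Eef1a1, Eef1b2, Eef1d, Eef1g, Eef2, Eif3e, Eif3f, Eif3h, Eif4b and Pabpc1, and all 10 passed the count minimum. Their median coding density was 125 CPM per kilobase in replicate 1 and 147 in replicate 2, against 95.8 and 89.5 for the 34 other members that passed the minimum and 41.1 and 45.6 for all 63 others. Without Eef1a1 and Eef2 the median of the remaining 8 was 105 and 110. RefSeq (GRCm38.p6) promoter sequences were matched for 53 of the 73 genes, and for 5 of the 10 TOP members. A C followed without break by C or T, at least 7 bases in all, was searched on the strand of the gene alone, within 25 bases on each side of the annotated start. It was found for 4 of the 5 TOP members and for 15 of the 48 other members, or 31.3%. Where a gene had several starts, that with the longest run was kept, in these counts and in the windows below. A run of at least 7 bases lay in 25.6% of all 27025 genes with an entry, kept likewise. It lay in 22.8% of all 32851 promoter windows, counting each start. The windows below show 4 of these TOP members and Eef1a2, the paralog of Eef1a1, with the longest run inside the searched bases in capitals, to let the tracts be compared. Letters further than 25 bases after the start are printed but were not searched, so a run can go on in lower case there, as in Eef1a2, and other runs can lie there, as in Eef1b2.
Eef1a1: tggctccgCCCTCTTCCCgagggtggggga
Eef1b2: agccgaggCCTTgcgtccgagcgctttcgt
Eif3f: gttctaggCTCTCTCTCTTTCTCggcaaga
Eif4b: ccgcgccaCCCCCTCgcgctgctttacgaa
Eef1a2: cactggttCTCTCCCTcgctccggtgcatc
These lie, 5′ to 3′ on the strand of the gene, at chr9:78481708-78481737 (minus), chr1:63176840-63176869 (plus), chr7:108934403-108934432 (plus), chr15:102073775-102073804 (plus) and chr2:181156977-181157006 (minus). Eif3f had the longest run, of 15 bases across the annotated start. Inside the searched bases Eef1a2, which is not among the 10, held a run of 8 that reached the limit of the search, and Eef1b2, which is among them, held 1 of 4. Counted from the annotated start, the printed runs began at -5 in Eef1a1, 18 in Eef1b2, -4 in Eif3f, 11 in Eif4b and 18 in Eef1a2. Annotated starts can lie some bases from the true cap site. Whether these runs begin at the cap, as a TOP tract does, was not tested.

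Among initiation factors, the subunits of eIF3 lay close together. This complex, encoded here by 14 genes, bridges the small ribosomal subunit and eIF4F. Eif3c, a core subunit, had the most counts, 114 and 44, over a coding sequence of 2736 nucleotides. Eif3a, the largest subunit, had 88 and 34 counts over 4035 nucleotides, a density of 67.2 ± 11.4 CPM per kilobase (SD, n = 2). Leaving out the loosely bound eIF3j, encoded by Eif3j1 and Eif3j2, the other 12 subunits lay between 66.1 CPM per kilobase for Eif3b and 196 for Eif3k, a 2.96-fold range. Eif3j1 was the lowest at 34.3 CPM per kilobase, and both eIF3j genes had few counts, 10 and 3 for Eif3j1 and 12 and 9 for Eif3j2. These are near-identical copies, and the fragments they share were not told apart.

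The SD of log2 coding density over the 14 genes was 0.71 in replicate 1 and 0.63 in replicate 2. Over the 12 subunits without eIF3j it was 0.54 and 0.47, of which counting noise alone would give 0.21 and 0.36. Over all coding genes past the count minimum the SD was 1.65 and 1.73, and over the 5 eIF2B subunits 0.57 and 1.24. These spreads are a description with no test. Dividing by transcript length in place of coding length gave 0.62 and 0.52 for the 12 subunits, while over all 14 genes the mean SD of 0.67 became 1.30. The 3′ untranslated regions of Eif3j1 and Eif3j2 are 4500 and 1537 nucleotides long. Eif3k, with the shortest coding sequence of the 14, exceeded Eif3a, with the longest, 3.63-fold in replicate 1 (95% interval 2.52 to 5.17) and 2.35-fold in replicate 2 (1.14 to 4.57). This pair holds the highest of the 14 and was chosen after values were seen. Its intervals therefore do not test whether the subunits were at equal density.

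**Figure D2:**
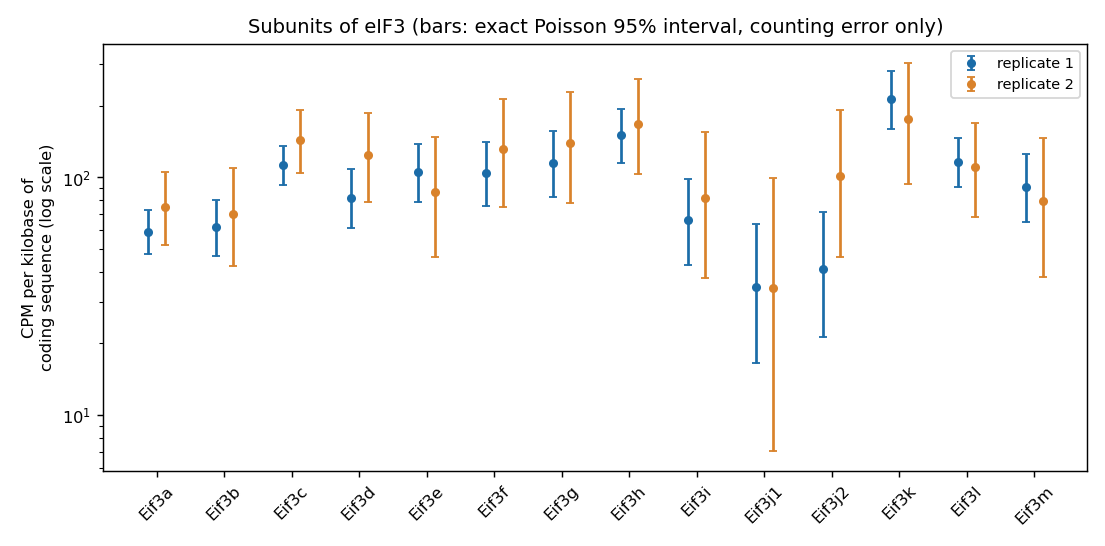
Coding density of the 14 eIF3 subunit genes in CPM per kilobase of coding sequence, on a log axis, with exact Poisson 95% intervals for replicate 1 (blue) and replicate 2 (orange). Eif3k is the highest at 214 and 177, Eif3j1 the lowest at 34.5 and 34.1, and the intervals of the replicates overlap for every subunit.

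The cap-binding side was less even. The RNA helicase Eif4a1 (ENSMUSG00000059796) had 167 and 35 counts on its coding isoform, or 371 (317 to 431) and 256 (178 to 356) CPM per kilobase. Eif4a2, its paralog that is abundant in brain, had 51 and 17 counts and a density of 113 and 124. Eif4a1 made up 76.7% of the pair in replicate 1 (70.5 to 82.1) and 67.4% in replicate 2 (53.0 to 79.7). With isoforms summed, the mean share of Eif4a1 went from 72.1% to 59.4%. Eif4a1 has 13 listed isoforms and Eif4a2 has 24. The processed pseudogene Eif4a-ps4 had 140 and 32 counts over 1218 nucleotides, and how many of these fit Eif4a1 as well was not tested. A retained-intron isoform of Eif4a1, with 155 and 47 counts, had the same sum of 202 as the coding one and stands for the gene in the test between the libraries. Eif4a3, the related helicase of the exon junction complex, stood at 101 and 72.2 CPM per kilobase.

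The scaffolds of eIF4F were low per kilobase although their counts were not. Eif4g1 had 53 and 12 counts over 4803 nucleotides, and Eif4g3 had 40 and 12 over 4704. Their densities were 26.1 ± 5.37 and 22.9 ± 0.187 CPM per kilobase (each SD, n = 2), and neither library separated them, since the share of Eif4g1 was 56.5% (45.8 to 66.8) and 49.5% (28.7 to 70.4). Eif4g2, also called DAP5, lacks the region that binds eIF4E and begins at a GUG codon. It had 124 and 24 counts and stood above Eif4g1, whose share of that pair was 19.5% (14.7 to 25.2) and 22.1% (11.4 to 37.1). These shares depend on the isoform used. With isoforms summed, the mean share of Eif4g1 went from 53.0% to 71.0% against Eif4g3 and from 20.8% to 41.8% against Eif4g2. Eif4g1 has 22 listed isoforms, and Eif4g2 and Eif4g3 have 14 each. The cap-binding protein Eif4e had 21 and 8 counts and a density of 87.0 and 109 CPM per kilobase. Its ratio to the 2 scaffolds together was 1.64 (95% interval 0.972 to 2.66) and 2.42 (0.941 to 5.57), so equal density fell inside both intervals. The 2 eIF4A helicases exceeded the scaffolds 9.13-fold (7.13 to 11.8) and 8.42-fold (5.10 to 14.3). The helicase cofactors differed, with Eif4h at 332 ± 38.1 and Eif4b at 84.7 ± 9.68 CPM per kilobase (each SD, n = 2).

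The regulators of eIF4E were sparsely covered. Eif4ebp2, the main eIF4E-binding protein of brain, had 8 and 2 counts, Eif4ebp1 had 2 and 1, and Eif4ebp3 had none. The share of Eif4ebp1 against Eif4ebp2 was 20.4% (2.58 to 56.2) and 33.9% (0.862 to 90.8), too wide to order them. Eif4e2, the cap-binding homologue that represses translation, had 9 and 2 counts, below Eif4e in replicate 1, where Eif4e held 71.7% of the pair (52.7 to 86.3), and not separable from it in replicate 2 (81.3%, 46.5 to 97.7). Eif4e3 had 1 and 2 counts. Eif4enif1, which carries eIF4E into the nucleus, had 6 and 2 counts.

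Small factors of start codon selection stood high per kilobase. Among genes past the count minimum, coding density fell with coding length. The Spearman rho was -0.777 across the 4392 coding genes and -0.471 across the 44 translation factors. Over all 73 translation factors it was -0.244. The minimum is set on counts, so a short gene passes it only at a higher density than a long one. Coding length is also part of the density, so these values are a description with no p. The trend covers short genes such as Eif1, Eif1b and Eif3k and long ones such as Eif4g1 and Eif4g3. Eif1, which keeps the scanning ribosome from starting at wrong codons, had 74 and 23 counts and a density of 586 and 601 CPM per kilobase over a coding sequence of only 342 nucleotides. Its paralog Eif1b had 44 and 13 counts over the same coding length, and Eif1 held 62.7% (53.3 to 71.4) and 63.9% (46.2 to 79.2) of the pair. The mean share of 63.3% became 50.6% with the median of full-length coding isoforms and 80.5% with isoforms summed. Eif1ax had 53 and 16 counts and Eif1a, its copy, 17 and 1, which gave Eif1a 24.3% (14.8 to 36.0) and 5.88% (0.149 to 28.7) of the eIF1A density. The counts are given per transcript and not by region, so the rank of a gene with long untranslated regions depends on the length used. Eif1ax, with a 3′ untranslated region of 4515 nucleotides, was 7th of 73 by coding length and 32nd by transcript length, and Eif4e went from 22nd to 46th. Eif1 went from 2nd to 6th, whereas Eef1a1 was 1st by either length. Across the 73 genes the Spearman rho between both densities was 0.936.

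Eif5, the activator of GTP hydrolysis by eIF2, had 66 and 21 counts and a density of 142 ± 4.75 CPM per kilobase (SD, n = 2). Eif5b, which joins the ribosomal subunits, was lower at 20.8 and 22.0, and Eif6, which keeps the large subunit free, stood at 66.1 and 96.8. The eIF2 subunits were close to each other: Eif2s1 had 35 and 8 counts and Eif2s2 had 27 and 6, with a ratio of densities of 1.36 (0.801 to 2.34) and 1.40 (0.426 to 4.90). Their gamma partner is outside the rule. The subunits of eIF2B, the exchange factor of eIF2 in which inherited defects cause vanishing white matter disease, had lower densities, from 13.5 CPM per kilobase for Eif2b4 to 40.4 for Eif2b2. All 5 lay above the median of all coding genes, 4.61, and below that of coding genes past the count minimum, 60.8, and 2 of the 5 passed that minimum. The kinases that phosphorylate eIF2 under stress ran from 0.882 CPM per kilobase for Eif2ak4 to 17.6 for Eif2ak1, which lay above Eif2b4. None of these kinases passed the count minimum. Eif2ak1, Eif2ak2, Eif2ak3 and Eif2ak4 had 11, 5, 1 and 3 counts in replicate 1 and 4, 1, 4 and 0 in replicate 2. The alternative carriers Eif2a and Eif2d had 12 and 5 counts, and 5 and 2 on the coding isoform.

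Of the termination and recycling factors, Etf1, Gspt1 and Abce1 lay near one another, and Gspt2 was lower. Etf1, which reads the stop codon, had 35 and 10 counts, Gspt1, its GTPase partner, 57 and 10, and Abce1 38 and 11. Their densities were 70.1 ± 2.99, 63.8 ± 24.1 and 55.9 ± 1.87 CPM per kilobase (each SD, n = 2). The ratio of Etf1 to Gspt1 was 0.893 (0.569 to 1.38) and 1.45 (0.543 to 3.89), and that of Abce1 to Etf1 0.793 (0.487 to 1.29) and 0.803 (0.310 to 2.11), so no difference was detectable at this depth. Gspt2, an intronless copy of Gspt1, had 13 counts in replicate 1 and 0 in replicate 2, and Gspt1 held 81.3% (70.2 to 89.7) and 100% (69.0 to 100) of the pair. Among poly(A)-binding proteins, which join the tail of the messenger RNA to eIF4G, Pabpc1 had 55 and 19 counts and Pabpc4 had 13 and 2. Pabpc1 held 81.4% (70.3 to 89.8) and 90.8% (70.4 to 98.9) of this pair, and Pabpc5 had 2 and 1 counts. With isoforms summed, the mean share of Pabpc1 went from 86.1% to 73.6%.

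Of the 11 paralog pairs, 7 had an interval that excluded equal density in both libraries, 2 in replicate 1 only and 2 in neither. Each pair leaned the same way in both libraries apart from Eif4g1 and Eif4g3. Where paralogs are alike enough to share fragments, the shares are uncertain by an amount that the table does not give.

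**Figure D3:**
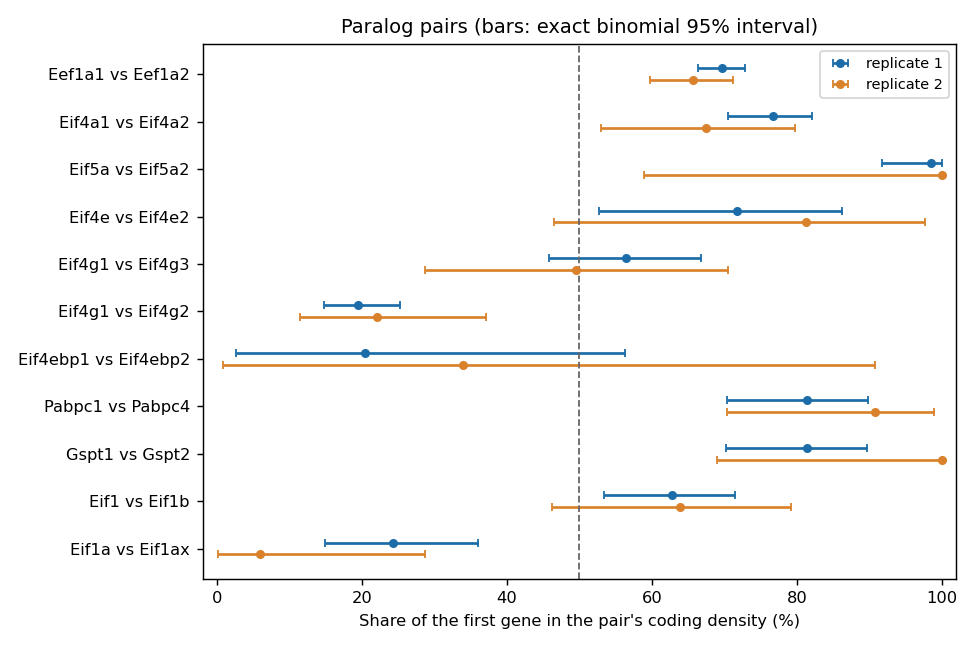
Share of the first named gene in the coding density of 11 paralog pairs, in percent, with exact binomial 95% intervals for replicate 1 (blue) and replicate 2 (orange); the dashed line is equal density. Eef1a1 lies at 69.7 and 65.6%, Eif4g1 against Eif4g2 at 19.5 and 22.1%, and the intervals of Eif4ebp1 cross the line in both replicates.

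With 1 group, the comparison that remains is between the libraries. None of the 44 tested translation factor genes differed between the replicates by the exact binomial test at a Benjamini-Hochberg adjusted p under 0.05, where the test called 4.14% of all 5436 genes tested (3.99% higher and 0.147% lower in replicate 2). Of the 4392 protein-coding genes it called 0.956% (0.82% higher and 0.137% lower). The count of 0 in 44 is read against that share and does not set these genes apart. With isoforms summed, 4 of 56 tested genes were called (Eif2d higher, and Eif2b4, Eef1d and Eif5a lower in replicate 2), or 7.14%, against 605 of 8366 genes in all, or 7.23%. With library totals 1 of 44 was called, against 3.66% of all genes. In neither setting was the share of coding genes alone computed, and in the main test that share was below the share of all genes. How the translation factors compare with coding genes in these settings was therefore not tested. A fragment that fits several isoforms may also count more than once where isoforms are summed. At an unadjusted p under 0.05 there were 3 of 44, or 6.82%, against 9.60% of all genes and 5.62% of coding genes: Eif5a and Eif4g2 were lower and Eef1a2 higher in replicate 2. The log2 ratio of Eif4g2 was -0.65 with an SE of 0.320 (exact binomial, adjusted p = 0.462). That of Eef1a2 was 0.39 with an SE of 0.174 (exact binomial, adjusted p = 0.379). The edgeR exact test with a preset coefficient of variation of 0.2 called 0 of 44 as well, against 2.41% of all genes. The binomial test with DESeq2 size factors called 0 of 44, against 4.12% of all genes. The log2 ratios of the other 2 best counted genes were no larger than their SE, at 0.12 for Eef1a1 (SE 0.123) and 0.13 for Eef2 (SE 0.140). With library totals the ratios of Eef1a1 and Eef2 were -0.09 and -0.08, so their sign depends on the scaling.

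The median log2 ratio of the 44 was 0.09, against 0.0041 for all genes tested and -0.02 for the coding ones. Across the 73 genes, log2(CPM + 1) correlated between the libraries with a Pearson r of 0.903 and a Spearman rho of 0.931. Genes are not independent replicates, and no p is given. Without Eef1a1, Eef2 and Eef1a2 the r was 0.887. In the plot of the replicates the well-counted genes follow the line of equal abundance and Eif5a falls below it.

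**Figure D4:**
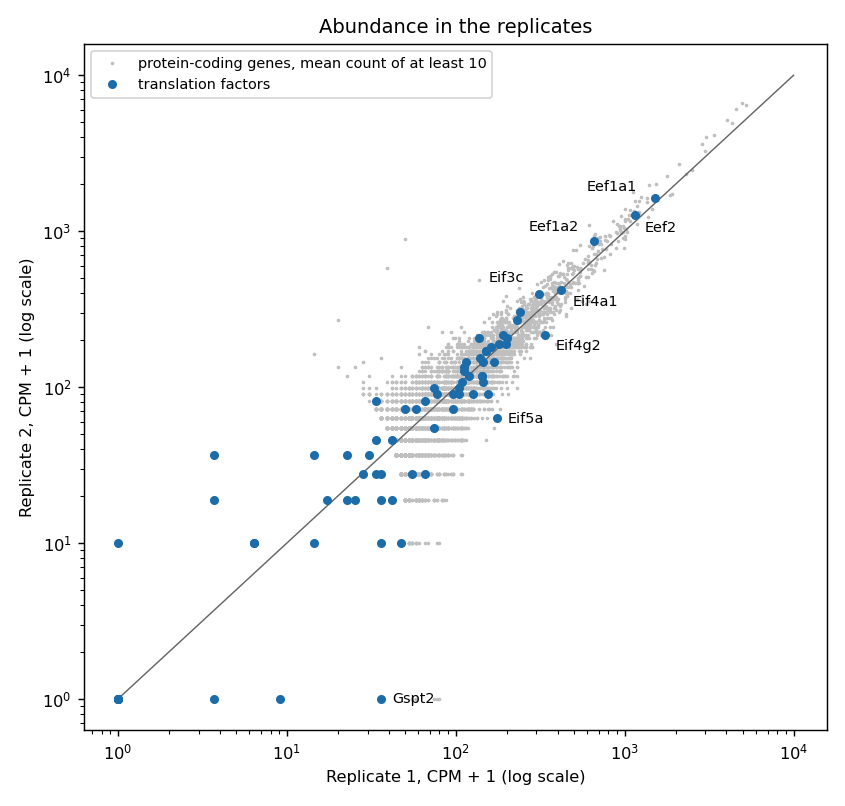
Abundance in replicate 2 against replicate 1 as CPM + 1 on log axes, for the 73 translation factor genes (blue) and the protein-coding genes past the minimum of 10 counts on average (grey); the line marks equal abundance. Eef1a1 lies near the line at 1507 and 1634 CPM, Eif5a below it at 173 and 62.5 CPM.

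Other genes of the pathway had a lower median. In a list of 35 further translation factors and regulators, 34 were found and 17 passed the count minimum. Of these 17, 0 were called higher and 0 lower in replicate 2, against 0.956% of coding genes called in either direction. At an unadjusted exact binomial p under 0.05 there was 1 of 17, against 5.62% of coding genes. The median coding density of the 34 was 19.8 CPM per kilobase in replicate 1 and 22.0 in replicate 2. The highest were Denr, which works in recycling and reinitiation, at 131 ± 5.32, the RNA helicase Ddx6 at 126 ± 13.8, and Paip2, an inhibitor of poly(A)-binding protein, at 109 ± 19.5 CPM per kilobase (each SD, n = 2). Of 10 mitochondrial translation factors 9 were found, with 79 and 24 counts in all. Only Tufm, the mitochondrial elongation factor Tu, passed the count minimum, with 40 and 7 counts. Tufm stood at 65.3 CPM per kilobase, Mrrf, the recycling factor, at 32.9, and Gfm1, an elongation factor G, at 16.7.

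The annotation of these genes is rich in isoforms. The 73 genes had 377 transcripts, of which 217 were protein coding, 85 retained introns and 22 subject to nonsense-mediated decay. For 4 genes the transcript with the highest count was not a coding one: Eif4a1, Eif5b and Eef2kmt had a retained-intron isoform and Eif2d a decay isoform in that place. Of the pseudogenes named after these genes, 8 were in the table, with 207 and 50 counts in all, most of them on Eif4a-ps4. Eif1-ps1 had 20 and 3 counts and Eif5al3-ps 21 and 5.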

How the data were processed

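Footprint counts of 2 brain libraries of 1 group were analysed. The authors deposited whole-number counts per transcript, not normalized, with lengths. Trimmomatic 0.36, Bowtie2 2.2.6, SAMtools and GRCm38.p4 are named, without roles, per the submitters' processing notes; the counting tool is not given in the sources used here. Of 22 pairs of coding isoforms with identical region lengths and at least 20 counts in replicate 1, 3 had identical counts in replicate 1. The mean squared difference was 0.543 of that of independent counts. How a fragment that matches several isoforms was counted is not known, and its effect on the isoform chosen was not tested.

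For each gene the transcript with the most counts over both libraries was kept, and for coding density the coding transcript with the most. CPM used edgeR 4.0.16 TMM effective library sizes (factors 1.07 and 0.931) over the 5436 genes averaging 10 counts or more. log2 ratios used CPM + 1. The exact binomial test with Benjamini-Hochberg adjustment compares libraries, not conditions; p-values measure reads only. On data simulated with counting noise alone and 200 of 5436 genes changed 3-fold, this test recovered 55%. The libraries themselves had a biological coefficient of variation of 0.276, so its recovery on them was not measured. Table totals were 729027 and 225075. All 73 symbols matched the name table. Genes named were those with at least 100 summed counts, those past the threshold, those in paralog pairs, the highest and lowest of each role, and the 3 highest of each pathway list. Others are named to cover each role, and the ratios between roles, the promoter windows and the isoforms described were chosen after values were seen. Members and lists were chosen with earlier results of these data known. Python 3.11.15, scipy 1.17.1, R 4.3.3 and DESeq2 1.42.0 were used. 1 promoter window is not reported here.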

Additional observations from a re-analysis of the deposited data

How the results depend on the processing

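No paired analysis was possible because the study has a single group (1 condition). The alternatives of the median full-length isoform and of leaving out Eef1a1, Eef2 and Eef1a2 were chosen after seeing the data. Where no cause is given, the cause was not tested. The count of 0 differing genes became 1 of 44 (Eif5a) with library totals, where 3.66% of all genes were called. It became 4 of 56 with isoforms summed (Eif2d, Eif2b4, Eef1d and Eif5a), where 7.23% of all genes were called. The share of coding genes alone was not computed for either setting. The count of differing genes stayed 0 under the other 7 alternatives, with 8 to 67 translation factor genes tested. Of all genes tested there, the share called ran from 0.501% (protein-coding genes alone) to 9.82% (50 counts or more on average, where 8 members were tested). These counts of 0 do not set the members apart. The 44 genes past the minimum became 8 at 50 counts or more on average and 67 with no minimum, and ran from 34 to 54 with a replicate left out. The biological coefficient of variation of all tested genes, 0.276, became 0.303 at 50 or more and 0.114 for coding genes alone. The share of gene counts, 0.976%, became 1.26% with isoforms summed (1.261) and of coding counts (1.264), and 0.626% without Eef1a1, Eef2 and Eef1a2.

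The median coding density of the 44 genes, 97.1 CPM per kilobase, became 323 at 50 or more, 66.8 with no minimum, 64.9 with isoforms summed, 100.2 with the longest coding sequence, 55.3 per transcript length, 93.5 with the median isoform and 88.0 without the 3 genes, and ran from 99.1 to 103 with a replicate left out. The SD over eIF3 subunits, 0.67, became 1.30 per transcript length, since Eif3j1 and Eif3j2 have long untranslated regions. Of 66 paralog shares under alternatives 15 moved by more than the spread between replicates. Of the pairs called in both libraries, 0 changed their leading gene. All 15 came from the 4 alternatives that kept both replicates. With a replicate left out, a share cannot move by more than that spread or turn such a pair over, so those shares are no check. With isoforms summed, Eef1a1 rose to 89.4% of its pair; Eef1a1 has 8 listed isoforms and Eef1a2 has 1.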
